A study of Mus musculus with 4 samples.

Results

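The genes described here encode the proteins of the cytosolic ribosome. They were taken by name from the liver read count table as protein-coding genes called Rpl or Rps with a number, together with Rplp0, Rplp1, Rplp2 and Rpsa, and the Rps6k kinases were left out. The rule used names only and no measured value, but it was set with earlier results of these data known. It gave 84 members among 35275 listed genes, of which 51 belong to the large (60S) subunit and 33 to the small (40S) subunit. Of the names, 7 are paralogues of another member, which leaves 77.

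The study asked how interval training affects the liver in mice with AApoAII amyloidosis, a disease in which apolipoprotein A-II aggregates into fibrils. All mice were females carrying the amyloidogenic Apoa2c allele. The labels give the strain as AKR/J with an Apoa2c congenic genotype, and the study's methods give R1.P1-Apoa2c mice, in which the allele was placed on the SAMR1 background. VS mice received vehicle and stayed sedentary. VI mice received vehicle and underwent high-intensity interval treadmill training (IT). FS mice received AApoAII fibrils by vein and stayed sedentary, and FI mice received fibrils and IT. Training lasted 16 weeks and all livers were taken at 26 weeks of age. Each group was 1 sequencing library made from the pooled liver homogenates of 4 mice, so 16 mice gave 4 libraries, no group had a second library, and differences between 2 libraries were described by their size and not tested.

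A ribosome is assembled in the nucleolus from ribosomal RNA and one copy of most of these proteins. The 40S subunit reads the mRNA, and the 60S subunit forms the peptide bond and passes the new chain through an exit tunnel. Ribosomal protein mRNAs of mammals begin with a C followed by a run of pyrimidines, the 5′ terminal oligopyrimidine (TOP) tract, through which mTORC1 controls their translation. In the liver they serve the synthesis of the plasma proteins that hepatocytes secrete.

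RefSeq promoter windows (GRCm38.p6) were matched by symbol to 63 of the 84 members. A C at the annotated start followed by at least 4 pyrimidines (letters C or T, sense strand only) stood in 13 of the 63, or 20.6%, against 3.01% of the 27025 genes in the table. When the tract could begin up to 5 bases to either side of the start, it was present in 29 members, or 46.0%, against 21.2% of all genes. A gene with several windows was counted once if any of them held the tract. The windows below hold 10 bases before the start and 20 from it on. They include the ribosomal protein phosphorylated downstream of mTORC1 (Rps6) and the most abundant member (Rps27). Rps18 had the lowest ratio of FS to VS after Rps4l, and Rpl35 had the lowest ratio of FI to VI. Members with no tract within 5 bases of the annotated start are also shown (Rpl4, Rpl26, Rpl7l1). Of these, Rpl26 was also among the members that differed most between FI and VI. Starts other than the annotated ones were not searched. Capitals mark the pyrimidine run from its first C within 5 bases of the start, and pyrimidines before that C stay in lower case.
Rps6, chr4:86857348-86857377, minus strand: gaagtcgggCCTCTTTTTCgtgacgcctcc
Rps27, chr3:90213629-90213658, minus strand: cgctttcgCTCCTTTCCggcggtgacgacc
Rps18, chr17:33955646-33955675, minus strand: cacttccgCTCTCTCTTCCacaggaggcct
Rpl35, chr2:39005112-39005141, minus strand: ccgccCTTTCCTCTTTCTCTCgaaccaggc
Rplp2, chr7:141447641-141447670, plus strand: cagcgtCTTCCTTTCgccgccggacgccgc
Rpl4, chr9:64173377-64173406, plus strand: tttcctgtgggagcagccgggtagagagga
Rpl26, chr11:68901556-68901585, plus strand: ggcaacttacagaaccggaagtcgcgtgta
Rpl7l1, chr17:46782637-46782666, minus strand: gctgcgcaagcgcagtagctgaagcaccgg

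The 4 libraries held 23442935 (VS), 24524287 (VI), 28814802 (FS) and 24801185 (FI) counts, so FS was also the deepest. Levels are given as FPKM (fragments per kilobase of transcript, scaled to library size) where genes are compared with each other, and as CPM (counts scaled to a common library size by TMM) where libraries are. Hepatocyte markers were high in every library (145740 to 160100 summed CPM). The 10 skeletal muscle markers summed to 75.4 CPM (VS), 9.40 (VI), 0.982 (FS) and 0.827 (FI), with 2 of them at 0 in FS and 6 at 0 in FI. The summed Kupffer cell markers were 205 CPM (VS), 254 (VI), 321 (FS) and 302 (FI), and the plasma cell markers 30.2, 21.9, 47.6 and 39.1 in the same order. In pooled tissue, fewer cells of a type and less RNA per cell cannot be told apart, and the part of these cell types in the results below was not tested.

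Members that reached 1 CPM in 1 or more libraries numbered 80, of which 47 were large and 33 small subunit genes. The 4 others were Rpl3l, Rpl10l, Rpl39l and Rpl24. Rpl3l, the muscle paralogue of Rpl3, had 10 counts (VS), 9 (VI), 5 (FS) and 0 (FI). Like the summed muscle markers, it was highest in VS and lowest in FI. Rpl10l, a paralogue known from the testis, had 0 counts in all 4 libraries, which allows up to 0.127, 0.123, 0.102 and 0.124 CPM in VS, VI, FS and FI (a limit of 3 counts, counting error only). Rpl39l had 1 or 2 counts per library. Rpl24, a gene of every ribosome, had only 2, 5, 8 and 7 counts. The sources used here do not give how reads that match several places were counted.

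Ribosomal protein mRNA made up 2.38% of all counts (VS), 2.44% (VI), 2.13% (FS) and 2.29% (FI), and the 95% exact binomial intervals of the 4 shares, which cover counting error only, did not overlap (2.37 to 2.38, 2.43 to 2.45, 2.12 to 2.13 and 2.29 to 2.30). FS was lowest and VI highest. Summed over both subunits the members reached 23608 CPM (VS), 24565 (VI), 20768 (FS) and 23513 (FI). The 2 subunits kept nearly the same proportion in every library, with a ratio of large to small subunit counts of 1.42 (VS), 1.44 (VI), 1.46 (FS) and 1.44 (FI). Its intervals were 1.42 to 1.43, 1.44 to 1.45, 1.45 to 1.47 and 1.43 to 1.44.

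The levels of single members spread over more than 2 orders of magnitude and were alike in the 4 libraries, with some close neighbours changing places. Rps27, a zinc finger protein of the 40S platform (ENSMUSG00000090733, mm10 chromosome 3, 90212725 to 90213615), was the highest at 1609 FPKM (VS), 1500 (VI), 1332 (FS) and 1587 (FI). Rplp1 of the stalk followed with a mean of 1046 FPKM, and Rpl36 with 981. At the low end stood Rps4l with a mean of 5.02 FPKM, Rpl26 with 9.25 and Rpl23a with 15.7. Rpl26 and Rpl23a are, like Rpl24, parts of every ribosome, and their low levels are given as listed. The median member had 307 FPKM (VS), 315 (VI), 277 (FS) and 302 (FI). Pearson's r of log2 FPKM across the 80 members lay between 0.995 and 0.998 for the 6 pairs of libraries, a description across genes that share libraries and lengths.

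**Figure D1:**
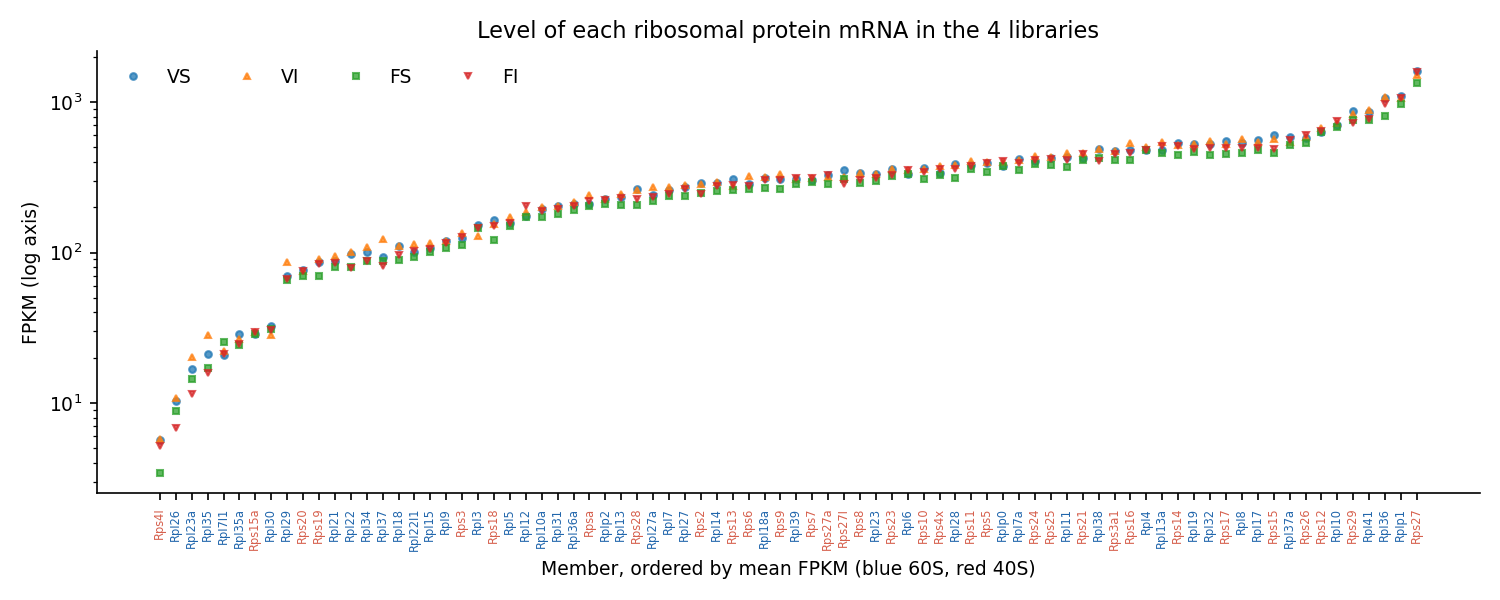
FPKM of the 80 kept members (log axis) in the VS, VI, FS and FI libraries, ordered by mean FPKM, with names of 60S genes in blue and 40S genes in red. The 4 marks of a gene lie close together, from Rps4l at a mean of 5.02 to Rps27 at 1507.

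The first comparison was fibril against vehicle injection in sedentary mice. In FS, 79 of the 80 members were lower than in VS, with a median log2 ratio of -0.20, a change of -12.8%. Across all 12180 genes kept, 48.0% were lower. The median was -0.19 for the large and -0.23 for the small subunit, and all 33 small subunit members were lower. The changes were small and alike: 1 member lay beyond 1.5-fold, against 17.6% of all genes. The counting interval of the single gene lay below 0 for 72 members and above 0 for 1. These intervals are narrow for genes with many counts. The share of all genes with an interval apart from 0 was not computed, here or in the later comparisons.

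Rps18, a protein of the 40S head (ENSMUSG00000008668, chromosome 17, 33951999 to 33956001), had 188 CPM (VS), 180 (VI), 136 (FS) and 176 (FI). FS stood apart from 3 similar libraries. Its log2 ratio of FS to VS was -0.46 (95% counting interval -0.53 to -0.40). Rps4l, an intronless paralogue of Rps4x, was the member beyond 1.5-fold, with 126 counts (VS), 134 (VI), 93 (FS) and 121 (FI), a ratio of -0.76 (-1.16 to -0.36). Its partner Rps4x, with 325, 368, 313 and 359 CPM, had a ratio of -0.05.

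The member that was higher in FS than in VS was Rpl7l1 (ENSMUSG00000063888, chromosome 17, 46773907 to 46782656), a paralogue of Rpl7 that acts in ribosome assembly. It had 54.1 CPM (VS), 58.1 (VI), 64.7 (FS) and 56.6 (FI), so FS was its highest library. The ratio of FS to VS was 0.26 (0.16 to 0.36), whereas Rpl7 itself, with 414, 440, 371 and 401 CPM, had -0.16. Rpl4, which lines the exit tunnel, was the next highest at -0.01 (-0.04 to 0.02), with 673, 719, 668 and 698 CPM.

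The second comparison was IT against sedentary keeping in mice that received fibrils. In FI, 74 of the 80 members were higher than in FS, with a median of 0.18, or 13.3%, against 50.2% of all genes kept. The median was 0.16 for the large and 0.20 for the small subunit. Under scaling by total counts these medians were 0.11 for all members, 0.089 for the large and 0.13 for the small subunit. Again 1 member lay beyond 1.5-fold, against 13.5% of all genes, and 68 intervals lay above 0 and 1 below. That member was Rps4l at 0.67 (0.27 to 1.07), followed by Rps18 at 0.37 (0.31 to 0.44). At the other end Rpl26 had -0.30 (-0.66 to 0.06) and Rpl23a -0.24 (-0.54 to 0.04), and both intervals included 0. The FS library enters this comparison and the first one, so their opposite directions are not separate observations.

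The third comparison was IT against sedentary keeping in vehicle mice. In VI, 63 of the 80 members were higher than in VS, against 50.7% of all genes kept, by a median of 0.05, or 3.77%. The median was 0.07 for the large and 0.03 for the small subunit. No member lay beyond 1.5-fold, against 11.6% of all genes, and 39 intervals lay above 0 and 11 below. Rpl35, a protein at the tunnel exit (ENSMUSG00000062997, chromosome 2, 39001580 to 39005624), was highest at 0.44 (0.27 to 0.62), with 471 counts (VS), 661 (VI), 465 (FS) and 372 (FI). Rpl37 followed at 0.41 (0.32 to 0.50). Rpl3, which reaches into the peptidyl transferase centre, was lowest at -0.21 (-0.26 to -0.16), with 283 CPM (VS), 245 (VI), 266 (FS) and 280 (FI), and Rpl30 had -0.18 (-0.27 to -0.08).

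The fourth comparison was fibril against vehicle injection in trained mice. In FI, 63 members were lower than in VI, against 48.7% of all genes, by a median of -0.07, a change of -4.59%, with -0.07 for the large and -0.05 for the small subunit. Beyond 1.5-fold were 3 members, against 14.0% of all genes, and all 3 were large subunit genes of the tunnel exit that were lower in FI. They were Rpl35 at -0.82 (-1.01 to -0.63), Rpl23a at -0.78 (-1.07 to -0.50) and Rpl26 at -0.63 (-0.99 to -0.28). All 3 had mean levels of 20.7 FPKM or less, against medians of 277 to 315 FPKM over the members in the 4 libraries. The other 5 tunnel exit genes on the list (Rpl17, Rpl19, Rpl22, Rpl31, Rpl39) did not go beyond 1.5-fold, and Rpl39 had 0.05. Highest were Rpl3 at 0.20 (0.15 to 0.25) and Rpl12 of the stalk base at 0.17 (0.11 to 0.22).

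**Figure D2:**
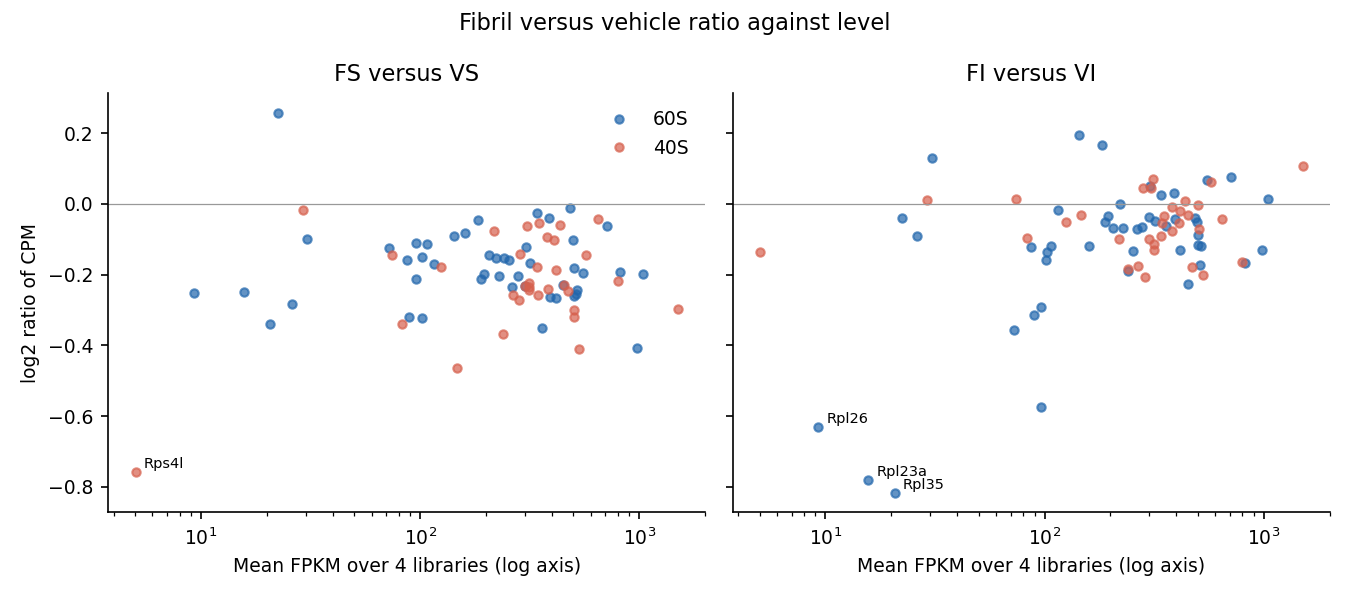
Log2 ratio of FS to VS (left) and of FI to VI (right) for each kept member against its mean FPKM (log axis), 60S genes in blue and 40S genes in red, with members beyond 1.5-fold named. Most members form 1 narrow group below 0, and the named ones, Rps4l at -0.76 and Rpl35, Rpl23a and Rpl26 between -0.82 and -0.63, lie at the low end of the level axis.

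Across the 4 libraries, FS was the lowest for 72 of the 80 members, against 24.1% of all genes kept, and VI was the highest for 52, against 20.4%. FS was lowest for 40 of 47 large and 32 of 33 small subunit members. The log2 difference with IT was larger in fibril than in vehicle mice for 66 members, with a median excess of 0.12, whereas 48.8% of all genes had a positive excess. This excess has no replicate check, since the fibril and vehicle contrasts each rest on 1 library per group.

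**Figure D3:**
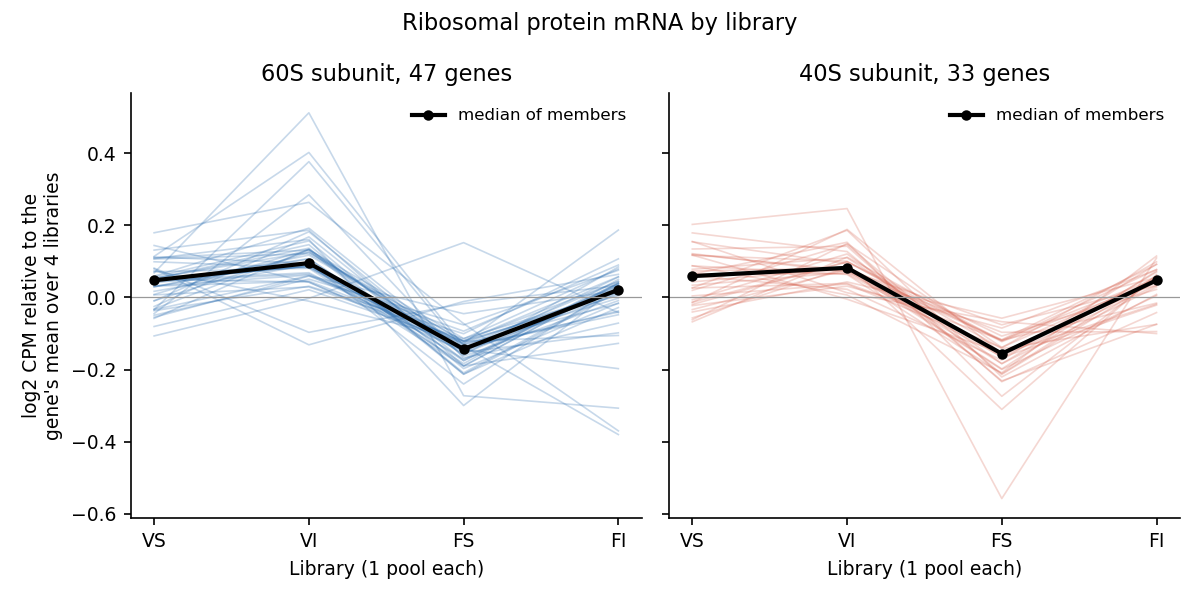
Log2 CPM of each kept member relative to its own mean over the 4 libraries, in the 47 large (left) and 33 small (right) subunit genes, with 1 thin line per gene and the median in black. The median is lowest in FS in both panels, and the highest line at FS in the left panel is Rpl7l1.

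An additive model of amyloidosis and IT over all 4 libraries (edgeR quasi-likelihood test, 11760 genes) called no member. Its single residual degree of freedom is the interaction, so the spread it uses is borrowed from other genes. For amyloidosis, 0 of 80 members passed an adjusted p of 0.05, against 4.97% of all genes, and 7 had an unadjusted p under 0.05, against 21.4%. Over all 11760 genes the median coefficient was 0.01, with 5690 negative. Over the 1165 other genes with a mean above 100 CPM it was -0.14, with 792 negative. The members had a median of -0.14, with 75 of 80 negative. The lowest adjusted p was that of Rpl35 (log2 change -0.59, SE 0.16, edgeR adjusted p = 0.072, lower in both fibril libraries than in their vehicle counterparts), and without the filter on low counts this gene was called (edgeR adjusted p = 0.0029). For IT, 0 members passed, against 1.48% of all genes, and 0 had an unadjusted p under 0.05, against 14.7%, with a median of 0.12 and a lowest adjusted p of 0.444. DESeq2 and limma-voom also called 0 members for either factor, with 2 and 7 members under an unadjusted p of 0.05 for amyloidosis and 0 for IT. Of all 11760 genes, DESeq2 called 470 for amyloidosis and 182 for IT, and limma-voom called 706 and 242. Genes under an unadjusted p of 0.05 numbered 1356 (DESeq2) and 2575 (limma-voom) for amyloidosis, and 761 and 1773 for IT.

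Genes outside the ribosome shared a part of this pattern. Of 1165 other genes with a mean above 100 CPM, 41.5% were lowest in FS, and their median log2 ratio was -0.17 for FS to VS, 0.04 for FI to FS, -0.01 for VI to VS and -0.10 for FI to VI. In the same genes 90 lay above and 142 below 1.5-fold in FS against VS. The 80 other genes that were both above 100 CPM and shorter than 1000 bases had medians of -0.34, 0.09, -0.03 and -0.18 in the same order. The 522 other protein-coding genes shorter than 1000 bases, at any level, had -0.14, -0.08, -0.08 and -0.16, so that they were lower in FI than in FS and in VI than in VS. These groups were chosen after the values were seen. All 3 groups were lower in FS than in VS in their median, as the members were, and their medians of FI to FS were below the 0.18 of the members. The part of transcript length, level and depth in the members' ratios was not tested.

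By place in the ribosome, all lists were lower in FS than in VS and higher in FI than in FS in their medians. Among all 80 members, 79 were lower in FS than in VS and 74 were higher in FI than in FS. The 4 stalk proteins, which recruit elongation factors, had a median of -0.10 for FS to VS, with 4 of 4 lower, and 0.19 for FI to FS, with 4 of 4 higher. Rplp0, the stalk base, had 508 CPM (VS), 550 (VI), 495 (FS) and 561 (FI), so the trained libraries were the 2 highest. Its ratio was 0.11 (0.08 to 0.15) for VI to VS and 0.18 (0.15 to 0.22) for FI to FS. Rplp1 had 535, 533, 467 and 538 CPM and Rplp2 had 218, 221, 197 and 220 CPM, and in both genes the intervals of VI to VS and of FI to VI included 0, whereas those of FS to VS and of FI to FS did not.

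Rpl5 and Rpl11 form with 5S rRNA the particle that binds Mdm2 when assembly fails. Rpl5 had 319 CPM (VS), 357 (VI), 301 (FS) and 329 (FI), and Rpl11 had 395, 421, 329 and 385. Both were highest in VI and lowest in FS. Of the 9 members on the list of p53 and Mdm2 binders, 9 were lower in FS than in VS (median -0.22), against 79 of all 80 members. In FI against FS 7 were higher (median 0.16), or 77.8%, against 92.5% of all members. Rpl23, another Mdm2 binder, had a ratio of -0.17 and 0.14 in these contrasts. Rpl13a, which is also known for silencing inflammatory mRNAs, had 703, 804, 655 and 776 CPM, with 0.19 for VI to VS and 0.24 for FI to FS. Rpl41, the smallest ribosomal protein, had 589, 620, 516 and 552 CPM and a ratio of -0.19 for FS to VS.

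On the 40S subunit, the 14 head proteins had a median of -0.24 for FS to VS and the 17 body and platform proteins -0.14, with all 31 lower. In FI against FS the medians were 0.21 and 0.19, with all 31 higher. Rps19, the gene most often mutated in Diamond-Blackfan anaemia, had 229 CPM (VS), 243 (VI), 181 (FS) and 228 (FI), and a ratio of -0.34 (-0.39 to -0.28) for FS to VS. Rps3, at the mRNA entry, had 395, 431, 349 and 416 CPM. Rps14 of the platform had 363, 357, 295 and 356 CPM, and Rps27a, made as a fusion with ubiquitin, had 303, 295, 258 and 310 CPM. FS was the lowest library for each of these 4 genes.

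Rps6, the substrate of the S6 kinases (ENSMUSG00000028495, chromosome 4, 86854660 to 86857412), had 319 CPM (VS), 367 (VI), 289 (FS) and 318 (FI). VI stood above the rest, with a ratio of 0.20 (0.16 to 0.25) to VS. Rpsa, also known as the laminin receptor, had 389, 450, 368 and 420 CPM, and both trained libraries were above both sedentary ones. Its ratio was 0.21 (0.17 to 0.25) for VI to VS and 0.19 (0.15 to 0.23) for FI to FS. The remaining paralogue pairs differed in their ratios. Rps27l, a p53 target, had 201, 182, 173 and 169 CPM, and its ratio of FI to FS was -0.03 (-0.09 to 0.03), against 0.32 (0.28 to 0.36) for Rps27. Rpl22l1 had 49.1, 56.2, 44.3 and 51.1 CPM and Rpl22 had 200, 207, 160 and 167, with FI to FS ratios of 0.21 and 0.06. Rpl10 had 645, 676, 617 and 712 CPM and Rpl39 had 186, 189, 171 and 196. The small positive FI to FS values of Rpl22 and Rpl4 became -0.01 under scaling by total counts.

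**Figure D4:**
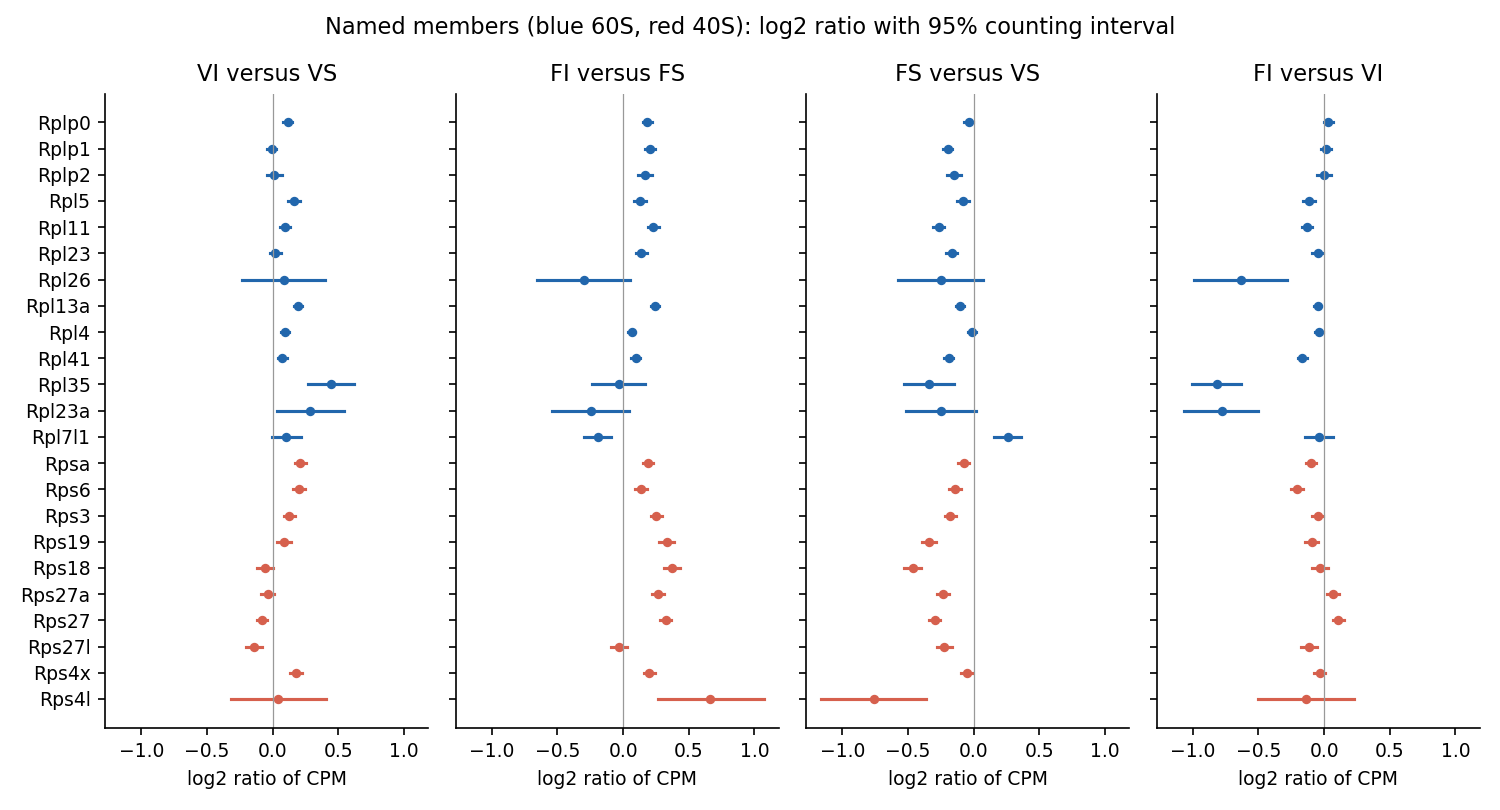
Log2 ratio of CPM for 23 named members in the 4 contrasts, with 95% exact conditional binomial intervals that cover counting error only, 60S genes in blue and 40S genes in red. In FS versus VS the points lie below 0 except for Rpl7l1 at 0.26, and the intervals of Rps4l, Rpl26 and Rpl23a are the widest.

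The 29 members with a tract near the start had median ratios of -0.20 for FS to VS and 0.18 for FI to FS, and the 30 kept members whose window lacked one had -0.18 and 0.18. The ranges overlapped in all 4 contrasts.

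Other genes of the protein synthesis pathway were read from fixed lists. The 23 translation factors and other mRNAs known to carry a TOP tract had medians of 0.06 for VI to VS, 0.16 for FI to FS, -0.14 for FS to VS and -0.09 for FI to VI. FS was lowest for 21 of the 23, against 24.1% of all genes kept, and VI highest for 18, against 20.4%. In the additive model no gene of the list passed the test for amyloidosis, against 4.97% of all genes, or for IT, against 1.48%. Of the 16 with a promoter window, 5 held a tract within 5 bases of the annotated start, or 31.2%, against 21.2% of all genes. Eef2, the elongation factor that moves the ribosome along the mRNA, had 2330 CPM (VS), 2453 (VI), 1786 (FS) and 2329 (FI), and Eef1a1, which delivers aminoacyl-tRNA, had 4750, 4795, 4054 and 4788. Both were chosen after their values were seen. The lowest amyloidosis coefficients were those of the helicase Eif4a2 (-0.43) and its cofactor Eif4b (-0.38), and the highest those of Eif2s3x (0.08) and Tpt1 (0.01).

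The 59 ribosome biogenesis genes had another order. Their medians were 0.25 for VI to VS, 0.14 for FI to FS, 0.13 for FS to VS and 0.02 for FI to VI. Of the 59, 52 were higher in VI than in VS, against 50.7% of all genes kept. In FI 43 were higher than in FS, against 50.2%. None passed the test for amyloidosis, against 4.97% of all genes, or for IT, against 1.48%. An unadjusted p under 0.05 was found for 18 genes for IT, against 14.7% of all genes, and for 5 for amyloidosis, against 21.4%. Heatr1, needed for transcription of ribosomal RNA, had 11.2 CPM (VS), 14.8 (VI), 18.6 (FS) and 19.3 (FI), and an amyloidosis coefficient of 0.55. Polr1e had 0.56, and at the low end stood Polr1d at -0.40 and Gar1 at -0.29.

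Among 24 kept mTORC1 genes, 1 passed the test for amyloidosis, against 4.97% of all genes, and 1 for IT, against 1.48%. It was in both cases Ddit4, an inhibitor of mTORC1 (amyloidosis log2 change 3.70, SE 0.15, edgeR adjusted p = 2.0e-05, higher in both fibril libraries). The list as a whole had medians between -0.01 and 0.09 in the 4 contrasts. Sesn3 had an amyloidosis coefficient of 0.58, Akt1s1 -0.20 and Mlst8 -0.25, none of which passed the test.

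The 76 kept mitochondrial ribosomal proteins build the separate ribosome of mitochondria. FI was lowest for 40 of them (52.6%), against 24.7% of all genes kept. FS was lowest for 16 (21.1%), near the 24.1% of all genes kept. Their medians were -0.04 for VI to VS, -0.08 for FI to FS, -0.13 for FS to VS and -0.12 for FI to VI, so that in FI against FS they were lower (52 of 76) where the cytosolic members were higher (74 of 80). Of the 76, 1 gene passed the test for amyloidosis, against 4.97% of all genes. It was Mrpl14 (log2 change -0.53, SE 0.12, edgeR adjusted p = 0.0481, lower in both fibril libraries). Mrpl12 had -0.51, and Mrpl16 and Mrps22 had 0.35 and 0.34 without passing it.

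**Figure D5:**
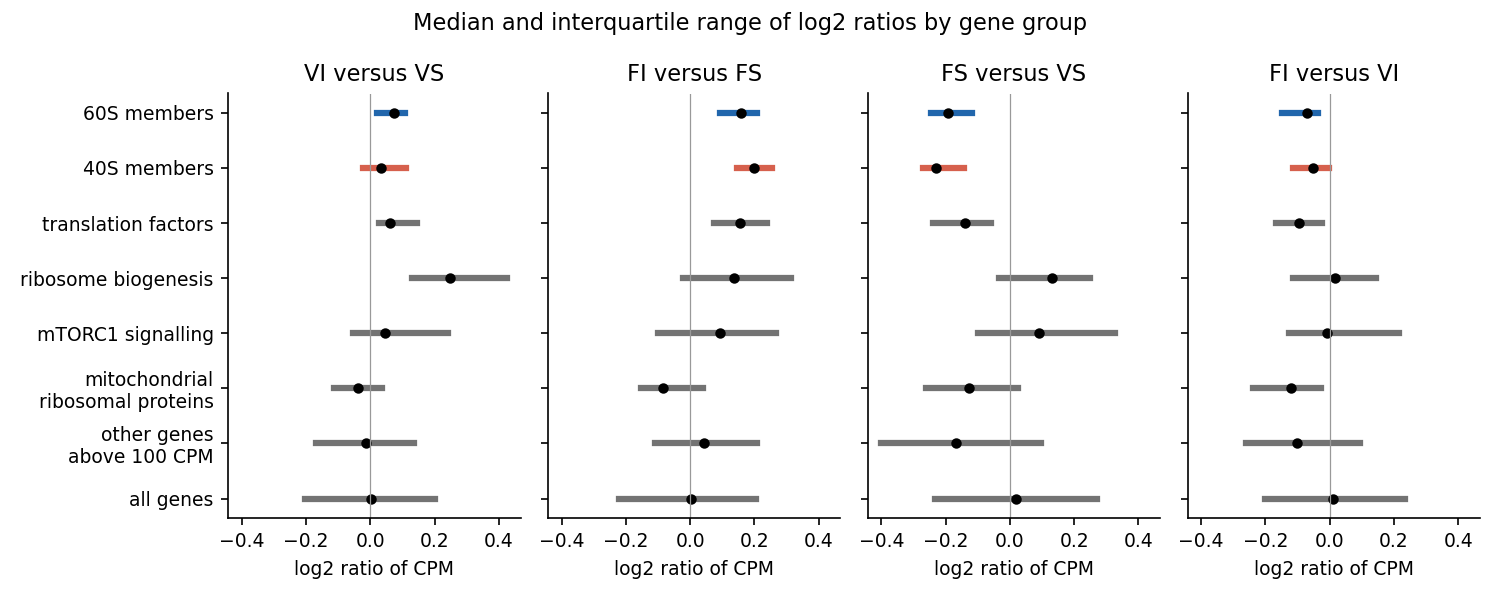
Median (point) and interquartile range (bar) of the log2 ratio of CPM for each gene group in the 4 contrasts. In FI versus FS the 60S and 40S members and the translation factors have medians between 0.16 and 0.20, while mitochondrial ribosomal proteins have -0.08 and all genes 0.002.

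Some genes encode ribosomal proteins but fall outside the naming rule, and 3 of them are described here. Fau, the source of eS30, had 512 CPM (VS), 474 (VI), 349 (FS) and 393 (FI), and both fibril libraries were below both vehicle libraries (amyloidosis log2 change -0.42, SE 0.13, edgeR adjusted p = 0.116). Rack1, listed as Gnb2l1, had 370, 422, 360 and 423 CPM, with the trained libraries highest. Rpl36al had 140, 140, 158 and 139 CPM and was highest in FS.

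Near-identical copies make the counts of some members uncertain. The 245 rows named as pseudogenes of a member held between 2.24% and 2.47% of the members' counts in each library. Most of these reads fell on Rps2-ps10, with 5562 counts (VS), 6293 (VI), 5581 (FS) and 6209 (FI), and on Rpsa-ps10 with 3668, 4636, 4256 and 4170. Rpl34-ps1 held 1825, 1856, 1966 and 1896 counts, about as many as Rpl34 itself. The retrogene Rpl37rt had 2252, 2354, 2453 and 2289 counts, while Rpl37 had 1899, 2604, 2199 and 1737, and its ratio of VI to VS was 0.02 (-0.06 to 0.10) where that of Rpl37 was 0.41. Whether reads moved between Rpl37 and its copy was not tested.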

How the data were processed

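Liver RNA of 4 groups was sequenced as 1 pooled library each. The authors deposited read counts per gene and FPKM values. The submitters' processing notes name fastp 0.23.2, STAR 2.5, HTSeq 0.6.1 and mm10, and the methods name edgeR with a dispersion that the sources used here do not give. The members and lists were chosen with earlier results of these data known.

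Counts were scaled by TMM in edgeR 4.0.16 (R 4.3.3). Ratios used a prior of 0.5 counts and genes reaching 1 CPM in 1 or more libraries, with 95% exact conditional binomial intervals (Clopper-Pearson), which cover counting error only. The additive model (glmQLFit, robust, glmQLFTest, Benjamini-Hochberg over 11760 genes) used all 4 libraries and genes reaching 1 CPM in 2 or more of them. It was tested on simulated data. Depth ran from 23442935 to 28814802 counts per library. Deposited FPKM served for levels between genes and as an alternative on the log2 scale. DESeq2 1.42.0 and limma 3.58.1 were alternatives. No column lacked a sample.

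Named were members fixed by role, paralogue pairs, the 2 highest and 2 lowest in each contrast, the 3 highest and 3 lowest mean FPKM, and the 2 extremes at each end of each related list by the amyloidosis coefficient. Lists of lymphocyte, neutrophil, erythroid and pancreas markers were also read: their summed CPM in VS, VI, FS and FI was 4.02, 2.01, 3.56 and 1.94 for lymphocytes, 1.99, 2.05, 4.34 and 3.06 for neutrophils, 360, 283, 253 and 339 for erythroid cells and 22.8, 12.7, 12.6 and 12.2 for pancreas. Of the listed symbols, 3 were matched through RefSeq synonyms and Riok2 was not matched. One result of the related lists is not reported here.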

Additional observations from a re-analysis of the deposited data

Results flagged for a closer look

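For 3 of the named members the contrast of IT with sedentary keeping ran in opposite directions with and without fibrils, with both counting intervals apart from 0. Each contrast rests on 1 library per group, so the difference itself was not tested. The log2 ratio of FI to FS exceeded that of VI to VS by 0.29 for Rpl3 (0.08 against -0.21), by 0.43 for Rps18 (0.37 against -0.06) and by 0.40 for Rps27 (0.32 against -0.08). For Rps18 the counting interval of VI to VS ended at -4.8e-05, barely below 0. Under the alternative settings its ratio in this contrast ran from -0.081 to -0.060. Under scaling by total counts, the FI to FS value of Rpl3 was 0.0044, still above 0 but close to it.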

How the results depend on the processing

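No group had a second library, so leaving out a replicate was not possible. No paired analysis was possible because each group is 1 library and no replicate numbers are shared. Of 232 recomputed summaries, 213 stayed within the set bounds, 19 moved and 0 reversed. For medians of FI to FS, scaling by total counts and the log2(FPKM + 1) and log2(FPKM + 0.1) scales gave 0.11 for all members in each case, 0.089, 0.088 and 0.089 for the large subunit and 0.13 for the small, and total counts lowered the IT median of the additive model to 0.072. The medians of VI to VS ranged over all settings from 0.033 to 0.063 for all members and from 0.013 to 0.045 for the small subunit. Total counts also moved the median of all genes to -0.07 in FI to FS and to -0.02 in VI to VS. The mean in place of the median gave -0.13 for the large subunit in FI against VI. At a 1.2-fold threshold 4 (VI to VS), 11 (FI to FS), 16 (FS to VS) and 7 (FI to VI) members passed, against 38.9%, 41.7%, 48.3% and 42.6% of all genes. At 2-fold 0 passed in FI to FS, FS to VS and FI to VI, against 4.28%, 5.8% and 4.54% of all genes. Without a filter on low counts 1 member, Rpl35, was called for amyloidosis (edgeR adjusted p = 0.0029), and 1519 genes in all against 585. Across settings, members lower in FS than in VS numbered 76 to 81 and those higher in FI than in FS 67 to 76. Among 816 values of named members, 738 stayed, 72 moved and 6 reversed: FI to FS was -0.0086, -0.0085 and -0.0086 for Rpl22 and -0.0065, -0.0065 and -0.0065 for Rpl4 under total counts, log2(FPKM + 1) and log2(FPKM + 0.1). The alternative without members under 20 FPKM was chosen after seeing the data. The cause of these shifts was not tested.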
